A study of Homo sapiens with 9 samples.

Results

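Messenger RNA of prostate cancer cells re-expressing full-length OGDHL was compared with that of cells re-expressing OGDHL without its mitochondrial targeting sequence (dMTS), 3 libraries against 3. Every gene with a level of at least 1 TPM (transcripts per 1000000) in 3 or more of the 9 libraries of the series was tested, 13231 of the 36650 genes in the deposited table. The cells were of the line 16D CRPC, a castration-resistant prostate cancer line. In both groups OGDHL had been knocked out with Cas9 and a guide RNA delivered by lentivirus, and the cells had then spent 6 weeks adapting to enzalutamide, an antiandrogen. A second lentivirus carried the full-length or the dMTS form, each made resistant to the knockout, and the cells were kept in 10 µM enzalutamide. Both groups therefore share the knockout and the drug, and differ by label only in the form of OGDHL. The 3 libraries with eGFP in place of OGDHL entered the model for its estimate of the spread and were not compared. The sources used here do not give whether the knockout line is 1 clone or a pool, nor which residues the dMTS form lacks. They do not say either that replicates were separate cultures, so the spread behind each p-value is that of these libraries and may be technical.

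OGDHL is a paralog of OGDH, the E1 subunit of the 2-oxoglutarate dehydrogenase complex. With the E2 subunit DLST and the E3 subunit DLD, this complex turns 2-oxoglutarate into succinyl-CoA in the tricarboxylic acid (TCA) cycle inside mitochondria. Proteins made in the cytosol reach the mitochondrial matrix by means of a targeting sequence, usually at the N-terminus, that is cut off after import. 2-oxoglutarate is also a substrate of dioxygenases in the cytosol and nucleus, among them histone and DNA demethylases and the prolyl hydroxylases that sense oxygen. The comparison holds no measure of where either protein was found.

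The start of the OGDHL coding sequence is shown because it encodes the N-terminal part of the protein, where a targeting sequence usually lies. It is the reference sequence of the transcript ENST00000374103.8 in GENCODE v29 (GRCh38), on the minus strand of chromosome 10, with the start codon in capitals and its first base at position 49758592. These 120 bases lie in the first coding exon, which holds 204 of the 3033 coding bases. The changes that protect the introduced genes from the guide are not in this sequence.
OGDHL, start of the coding sequence: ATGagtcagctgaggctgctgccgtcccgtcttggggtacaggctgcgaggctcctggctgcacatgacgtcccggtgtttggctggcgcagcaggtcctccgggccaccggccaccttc

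The estimated depth of the 6 libraries was 96.3 to 121 M reads (M, 1000000). The deposited TPM are divided by the genomic span of a gene, introns included, so levels are compared between libraries and not between genes. Luminal epithelial genes marked every library, with 244 to 324 TPM for the homeobox factor HOXB13, 206 to 273 for the pioneer factor FOXA1 and 135 to 185 for the keratin KRT18, over the lowest and highest of the 6. The 10 immune and endothelial markers in the table summed to at most 0.760 TPM, and the leukocyte gene PTPRC, the basal factor TP63 and the stromal collagen COL1A2 were at or near 0. Mitochondrially encoded genes took 63.4% to 65.0% of TPM with full-length OGDHL and 65.7%, 54.9% and 62.9% in dMTS replicates 1, 2 and 3. A TPM table adds up to the same total in each library, so a lower mitochondrial share raises all other genes, and dMTS replicate 2 stood 0.28 (log2) above the average library at the median gene. Counts of genes are therefore given as deposited and again rescaled, with each library shifted so that its median tested gene lies at the average over libraries. For members of gene lists, the TPM are as deposited and the differences rescaled. Rescaling moved the median difference between the groups from -0.05 to -0.00.

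The libraries did not sort by the form of OGDHL. After rescaling, the SD over genes of the log2 difference between 2 libraries was 0.160 to 0.212 for the 3 pairs within full-length, 0.158 to 0.246 for the 3 pairs within dMTS and 0.155 to 0.248 for the 9 pairs across the groups. The most alike of all pairs was full-length replicate 2 with dMTS replicate 1. That dMTS library lay further from dMTS replicate 2 than from any full-length library, and the counts of calls without it are given at the end.

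**Figure D1:**
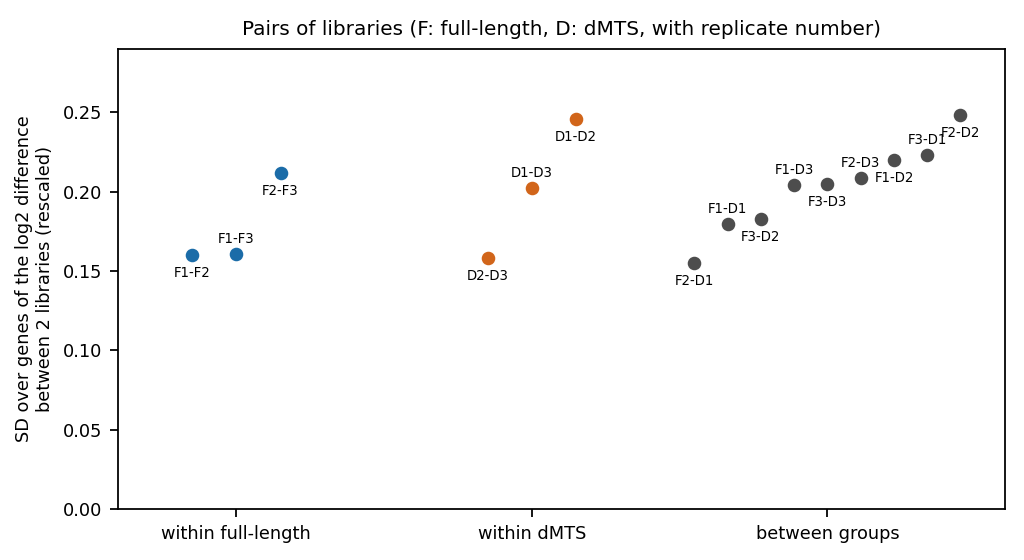
The vertical axis gives the SD over the 13231 tested genes of the log2 difference between 2 libraries after rescaling, with 1 point for each pair, sorted by kind of pair. Pairs across the groups run from 0.155 (full-length 2 with dMTS 1) to 0.248, nearly the same span as the pairs within a group.

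OGDHL mRNA was found in every library of both groups, with more in the full-length libraries on average and an overlap between single libraries. Its level was 220, 165 and 270 TPM in full-length replicates 1 to 3 and 76.1, 175 and 124 TPM in dMTS replicates 1 to 3. Full-length replicate 2 lay below dMTS replicate 2 as deposited, and the groups no longer overlapped after rescaling. The means were 218 ± 52.8 and 125 ± 49.5 TPM (SD, n = 3 each), a ratio of 1.74. All differences below are full-length minus dMTS on the scale log2(TPM + 1), so a positive value is higher with full-length OGDHL, and adjusted p-values are those of limma with Benjamini-Hochberg adjustment. For OGDHL the difference was 0.85 (SE 0.25, adjusted p = 0.517), or 0.91 rescaled (SE 0.21, adjusted p = 0.182). An exact two-sided permutation test on the TPM gave p = 0.2, where 3 against 3 libraries cannot give less than 0.1. The dMTS construct is shorter, and the same genomic span (chromosome 10, 49734641 to 49762379) divided the reads of both forms. In bulk RNA, less OGDHL in every cell and fewer cells with the construct cannot be told apart. The value of the gene also does not separate reads of the construct from any reads of the knocked-out gene itself, and their shares were not tested. The part of the OGDHL level in the results that follow was not tested.

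The partners of OGDHL in the cell were close to each other between the groups, and none was called. OGDH was at 7.74, 6.91 and 8.22 TPM with full-length and 6.88, 10.8 and 8.46 TPM with dMTS OGDHL. The differences for OGDH, DLST, DLD and DHTKD1, the E1 subunit of the related 2-oxoadipate complex, were -0.09 to -0.16 as deposited (each adjusted p = 0.973) and -0.03 to -0.10 rescaled. In the wider list of 2-oxoacid dehydrogenases, their regulators and lipoylation enzymes, 0 of 18 tested genes were called under either scaling.

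Across all genes, limma called none as deposited at an adjusted p under 0.05 (0% of genes, lowest adjusted p 0.0739) and 1 rescaled (0.00756%). Without adjustment, 717 genes (5.42%) had a p under 0.05 as deposited, 422 (3.19%) of them higher with full-length and 295 (2.23%) higher with dMTS. After rescaling these were 1989 genes (15%), 1168 (8.83%) higher with full-length and 821 (6.21%) higher with dMTS. Groups without overlap, each full-length library on 1 side of each dMTS library, made up 8.92% of genes on the deposited scale (4.22% higher with full-length, 4.7% higher with dMTS) and 17.4% after rescaling (9.46% and 7.94%). Voom on estimated reads called 1 gene as deposited and 14 rescaled.

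The differences were small for most genes. The median size was 0.08 as deposited and 0.05 rescaled (log2), 102 genes differed by over 0.5 rescaled, and 4 by over 1. These 4 were IGFBP3 and, on the dMTS side, ENSG00000262533, ENSG00000269983 and ENSG00000280320, genes without a symbol whose libraries were widely scattered (rescaled adjusted p = 0.570, 0.385 and 0.194). They are named because the count is small, after their values were seen. The 95% interval of the difference lay inside -1 to 1 for 99.3% of genes as deposited and 98.97% rescaled, and inside -0.5 to 0.5 for 87.7% and 89.3%. Smaller differences may go undetected at this number of libraries. The added 1 makes these values smaller than the ratio of levels for genes of low TPM.

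**Figure D2:**
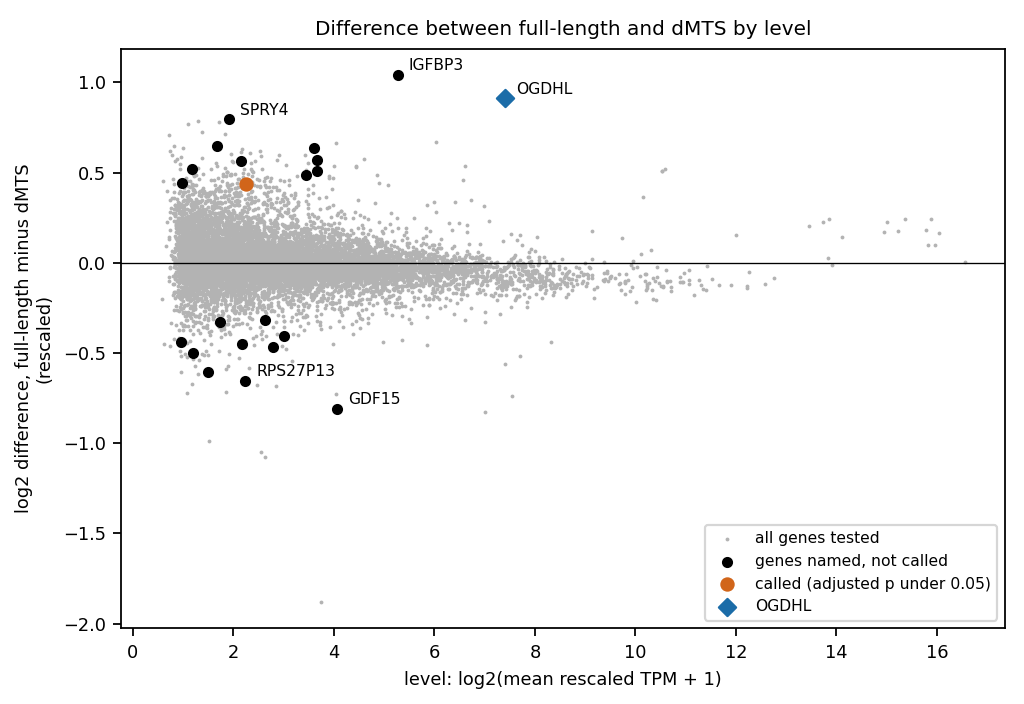
Each point is a tested gene, with its level after rescaling on the horizontal axis (log2 of mean TPM + 1) and the rescaled log2 difference, full-length minus dMTS, on the vertical axis. Most genes lie within 0.28 of 0 (the 95th percentile of size), OGDHL and IGFBP3 stand near 1, and the single called gene, marked in orange, lies at 0.44.

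The 1 gene called after rescaling is a long noncoding RNA without a symbol, ENSG00000289913 (GRCh38, chromosome 17, 81392305 to 81393364, plus strand), named because the count is small and chosen after its values were seen. It was at 4.56, 4.25 and 4.51 TPM with full-length and 2.97, 3.60 and 2.95 TPM with dMTS OGDHL. All full-length libraries lay above all dMTS libraries under both scalings. The rescaled difference was 0.44 (SE 0.04, adjusted p = 0.0342), against 0.39 (SE 0.09, adjusted p = 0.438) as deposited. The rescaled call was lost without any 1 of the 9 libraries other than dMTS replicate 1, and with only the 6 compared libraries in the model.

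SPRY4 and IGFBP3 had the lowest p as deposited among genes with a known function, and neither was called. SPRY4, which dampens ERK signalling downstream of growth factor receptors, was at 3.63, 3.68 and 3.89 TPM with full-length and 2.00, 1.95 and 1.49 TPM with dMTS OGDHL. The ratio of the means was 2.06, and the difference was 0.75 (SE 0.10, adjusted p = 0.0739), or 0.80 rescaled (SE 0.08, adjusted p = 0.0727). IGFBP3, a secreted protein that binds insulin-like growth factors, was at 49.3, 47.6 and 52.97 TPM against 30.6, 24.1 and 20.7 TPM. Its ratio of the means was 1.99, and the difference was 0.98 (SE 0.13, adjusted p = 0.0739), or 1.04 rescaled (SE 0.17, adjusted p = 0.119). For both genes every full-length library lay above every dMTS library, and the gap between the groups was wider than the spread inside either. Some other settings called them: IGFBP3 among genes with a mean of at least 5 TPM (adjusted p = 0.0166), SPRY4 by voom on the deposited scale (adjusted p = 0.0125) and both by voom after rescaling.

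**Figure D3:**
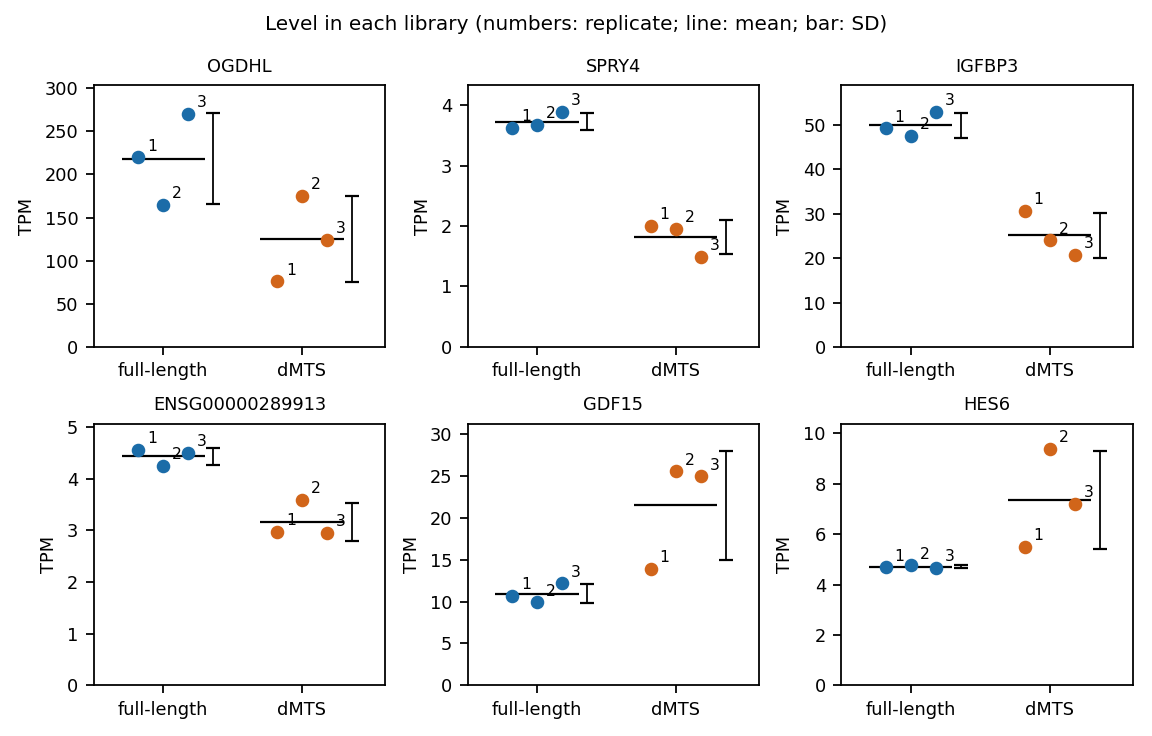
TPM of 6 genes in each library, from 0, with numbers for the replicate, a line for the group mean and a bar for the SD (n = 3). SPRY4, IGFBP3 and ENSG00000289913 are higher in every full-length library, GDF15 and HES6 higher in every dMTS library, and for OGDHL full-length replicate 2 lies below dMTS replicate 2.

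Among the other genes with the lowest p on the full-length side, 3 encode enzymes or secretory proteins of known function. GPT, the cytosolic alanine aminotransferase that makes glutamate and pyruvate from alanine and 2-oxoglutarate, was at 4.38, 3.70 and 4.63 TPM against 2.84, 2.85 and 2.29 TPM (difference 0.52, adjusted p = 0.330). AGR2, a disulfide isomerase of secretory epithelia, was at 1.27, 1.17 and 1.33 TPM against 0.805, 0.708 and 0.560 TPM (0.42, adjusted p = 0.426). EME2, a subunit of a DNA structure-specific endonuclease, was at 14.1, 13.3 and 14.3 TPM against 11.4, 9.07 and 8.09 TPM (0.51, adjusted p = 0.426). The groups did not overlap for any of these, under either scaling, and none was called. The remaining genes of this side were the kinesin KIFC2 (0.45), the noncoding RNAs LINC00685 (0.48) and LINC02593 (0.58), and the processed pseudogenes MRPS18AP1 (0.61) and MTND4P20 (0.43). Reads of the pseudogenes cannot be told apart with certainty from those of their parent genes, and LINC00685 lies in the pseudoautosomal region, which has a copy on each sex chromosome.

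On the dMTS side, GDF15 encodes a secreted cytokine induced by cell stress. It was at 10.7, 9.93 and 12.2 TPM with full-length and 13.9, 25.6 and 25.0 TPM with dMTS OGDHL. All dMTS libraries were higher, but dMTS replicate 1 was much nearer to the full-length libraries than to its own group. The means were 10.9 ± 1.16 and 21.5 ± 6.55 TPM (SD, n = 3 each), and the difference was -0.87 (SE 0.19, adjusted p = 0.426), or -0.81 rescaled (SE 0.17, adjusted p = 0.167). HES6, a helix-loop-helix factor used as a neuroendocrine marker, was at 4.69, 4.76 and 4.66 TPM against 5.49, 9.38 and 7.19 TPM (-0.52, adjusted p = 0.466). It had the same order, dMTS replicate 1 lowest in its group and above every full-length library.

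The other genes with the lowest p on the dMTS side were not called either. TM4SF1, a tetraspanin-like membrane protein, was at 2.62, 2.69 and 2.99 TPM against 3.33, 5.003 and 4.81 TPM (-0.50, adjusted p = 0.454). FZD9, a Wnt receptor, was at 2.06, 1.67 and 1.99 TPM against 2.66, 2.97 and 2.68 TPM (-0.38, adjusted p = 0.454). The groups did not overlap for either gene. TP53TG3B (-0.65) has near-identical copies in the genome, RPS27P13 (-0.70), RPS26P28 (-0.54) and FAM133CP (-0.47) are pseudogenes, and LINC00853 (-0.46) and DYRK3-AS1 (-0.37) are noncoding RNAs.

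All gene lists were chosen with earlier results of these data known, so their counts describe the data and are no independent support. By signalling pathway, genes of the BMP-SMAD axis leaned to the full-length side. BMP ligands activate SMAD factors that switch on the ID genes, whose products block other helix-loop-helix factors. Of 19 genes listed 9 were tested, and 0 were called under either scaling. The rescaled median was 0.20, against -0.00 over all genes. A rescaled p under 0.05 was seen for 7 of the 9 on the full-length side, where 8.83% of all genes had one, and for 0 on the dMTS side. As deposited, 4 of the 9 had a p under 0.05 on the full-length side, where 3.19% of all genes had one. ID1 was at 78.9, 76.7 and 75.3 TPM against 63.9, 49.8 and 39.9 TPM (rescaled 0.67, SE 0.19, adjusted p = 0.194). ID3 was at 109, 111 and 117 TPM against 90.1, 85.5 and 68.3 TPM (rescaled 0.53, SE 0.12, adjusted p = 0.178). In both genes every full-length library was above every dMTS library, and dMTS replicate 1 was the highest of its group. ID2 (0.34), ID4 (0.35), the TGF-β target PMEPA1 (0.20), the receptor-activated SMAD9 (0.19) and the SMAD corepressor SKIL (0.20) had rescaled differences of the same sign, while the receptor BMPR2 was at 0.08 and the decoy receptor BAMBI at -0.01. The ligands BMP2, BMP4 and BMP7 and the inhibitory SMAD6 and SMAD7 did not reach the level tested. Here and below, each list said to lean to 1 side had a median of the same sign on the deposited scale. For lists on the dMTS side this adds little. As deposited the median over all genes was -0.05, and only 26.1% of genes were higher with full-length.

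The MAPK list joins feedback genes of the pathway, which are induced by ERK and in turn dampen it, with immediate-early genes such as JUNB. Its members differed in both directions. Besides SPRY4, the phosphatase DUSP2 was at 12.8, 11.4 and 13.4 TPM with full-length and 9.83, 10.4 and 8.28 TPM with dMTS OGDHL (rescaled 0.43, SE 0.08, adjusted p = 0.161). DUSP4, another MAPK phosphatase, ran the other way, with 1.82, 1.75 and 2.00 TPM against 2.19, 3.47 and 2.79 TPM (rescaled -0.35, SE 0.05, adjusted p = 0.116). The AP-1 subunit JUNB was at 36.0, 36.9 and 38.0 TPM against 31.2, 35.5 and 28.9 TPM (rescaled 0.28, adjusted p = 0.187). The libraries of the groups did not overlap for any of the 3 genes. Over the 15 tested members 0 were called and the rescaled median was 0.05. A rescaled p under 0.05 was seen for 5 on the full-length side, beside 8.83% of all genes, and for 1 on the dMTS side, beside 6.21%. As deposited there were 3, beside 3.19%, and 1, beside 2.23%. The count of 1 of 15 on the dMTS side is near the background.

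Genes of the integrated stress response, the program of the factor ATF4 that answers amino acid shortage and mitochondrial stress, leaned to the dMTS side. Of 26 tested genes 0 were called and 25 had a rescaled difference below 0, beside 6739 of all 13231 genes. A rescaled p under 0.05 on the dMTS side was seen for 15, where 6.21% of all genes had one. As deposited 6 had a p under 0.05 there, beside 2.23% of all genes. The rescaled median was -0.12. DDIT4, an inhibitor of mTORC1, was at 113, 109 and 115.8 TPM with full-length and 122, 174 and 152 TPM with dMTS OGDHL (rescaled -0.33, SE 0.05, adjusted p = 0.116). The serine synthesis enzyme PSAT1, which uses glutamate and releases 2-oxoglutarate, was at 17.7, 16.7 and 18.3 TPM against 18.4, 25.2 and 19.7 TPM (rescaled -0.18, SE 0.03, adjusted p = 0.120). The asparagine synthetase ASNS was at 24.0, 23.5 and 23.9 TPM against 25.0, 32.6 and 27.0 TPM (rescaled -0.16, SE 0.03, adjusted p = 0.134). In these 3 genes every dMTS library was above every full-length library, with dMTS replicate 1 by a narrow margin. The mitochondrial PEP carboxykinase PCK2 had a rescaled difference of -0.21 (adjusted p = 0.161), and ATF4 itself one of -0.16 (adjusted p = 0.249).

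The chaperones and folding enzymes of the endoplasmic reticulum unfolded protein response had the same sign. Of 22 tested genes 0 were called, all 22 had a rescaled difference below 0, 10 had a rescaled p under 0.05, and the rescaled median was -0.12. As deposited 2 had a p under 0.05. The shares over all genes on this side, here and in the dMTS-side lists that follow, were 6.21% rescaled and 2.23% as deposited. XBP1, a transcription factor of this response, was at 65.0, 63.9 and 68.0 TPM with full-length and 65.0, 90.4 and 74.4 TPM with dMTS OGDHL (rescaled -0.14, SE 0.03, adjusted p = 0.165). On the deposited scale dMTS replicate 1 lay among the full-length libraries, and the groups were apart only after rescaling. The disulfide isomerases PDIA6 (-0.15, adjusted p = 0.149) and PDIA4 (-0.15, adjusted p = 0.161) and the secreted factor MANF (-0.20, adjusted p = 0.181) did not overlap between the groups after rescaling either.

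Lipid synthesis genes also leaned to the dMTS side. In the list of cholesterol synthesis and its regulator SREBP2, 0 of 24 tested genes were called, 21 had a rescaled difference below 0, 10 had a rescaled p under 0.05 on the dMTS side (4 as deposited), and the rescaled median was -0.10. INSIG1, which holds SREBP factors in the endoplasmic reticulum, was at 47.3, 43.2 and 52.0 TPM with full-length and 54.1, 82.1 and 71.5 TPM with dMTS OGDHL (rescaled -0.45, SE 0.08, adjusted p = 0.130). The squalene synthase FDFT1 (-0.23, adjusted p = 0.140), the sterol demethylase MSMO1 (-0.23, adjusted p = 0.142) and the reductase HSD17B7 (-0.16, adjusted p = 0.161) came next.

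In fatty acid metabolism 0 of 22 tested genes were called and 7 had a rescaled p under 0.05, all on the dMTS side (rescaled median -0.07). As deposited 3 had one. The desaturase SCD, which makes monounsaturated fatty acids, was at 170, 149 and 186 TPM against 187, 323 and 264 TPM (rescaled -0.52, SE 0.11, adjusted p = 0.175). The full-length libraries were all below the dMTS libraries, but full-length replicate 3 and dMTS replicate 1 were nearly level. The desaturase FADS2 (-0.27), the acyl-CoA synthetase ACSL1 (-0.39) and the lipogenic factor SREBF1 (-0.14) had rescaled adjusted p-values of 0.175, 0.186 and 0.193.

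Glycolysis genes had small differences, mostly of the same sign, and so did hypoxia-inducible genes, which respond to oxygen through the 2-oxoglutarate-dependent prolyl hydroxylases. Of 19 tested glycolysis genes 0 were called, 18 had a rescaled difference below 0 and 12 a rescaled p under 0.05 on the dMTS side (rescaled median -0.11), against 3 as deposited. The lactate dehydrogenase LDHA was at 159, 157 and 180 TPM with full-length and 168, 236 and 217 TPM with dMTS OGDHL (rescaled -0.24, SE 0.07, adjusted p = 0.194). The aldolase ALDOC was at 24.1, 23.0 and 28.5 TPM against 26.6, 40.1 and 43.6 TPM (rescaled -0.44, SE 0.14, adjusted p = 0.218). On the deposited scale both genes overlapped, with dMTS replicate 1 below full-length replicate 3. Of 15 tested hypoxia-inducible genes 0 were called and 7 had a rescaled p under 0.05 on the dMTS side (rescaled median -0.08), with the mitophagy receptor BNIP3 at -0.31 (adjusted p = 0.229) and the collagen prolyl hydroxylase P4HA1 at -0.20 (adjusted p = 0.268). VEGFA, the angiogenic growth factor, was at 0.03. As deposited 2 of the 15 had a p under 0.05. DDIT4, described above with the integrated stress response, is also a member of the hypoxia list and was counted in both.

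Genes of the TCA cycle had rescaled differences of -0.21 to 0.01. Of 20 tested genes 0 were called, 19 had a rescaled difference below 0, 10 had a rescaled p under 0.05 on the dMTS side, and the rescaled median was -0.07. As deposited 1 of the 20 had a p under 0.05 there. The mitochondrial isocitrate dehydrogenase IDH2, which makes 2-oxoglutarate, was at 23.4, 24.2 and 24.8 TPM with full-length and 24.3, 32.3 and 27.3 TPM with dMTS OGDHL (rescaled -0.13, SE 0.04, adjusted p = 0.219). Fumarase (FH, -0.08) and the succinate dehydrogenase subunit SDHB (-0.10) had adjusted p-values of 0.254 and 0.253. The 25 tested enzymes of glutamine and glutamate metabolism had a rescaled median of -0.04 and 0 calls.

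The nuclear-encoded subunits of the respiratory chain differed little, nearly all with the same sign. Complex I had a rescaled median of -0.05 over 37 genes, with 5 at a rescaled p under 0.05 on the dMTS side, and complexes II to V had -0.09 over 39 genes, with 12. None of these genes was called. The cytosolic ribosomal proteins, which build the ribosome, had a rescaled median of -0.10 over 40 genes, with 12 at a rescaled p under 0.05 on the dMTS side and 0 calls. A rescaled difference below 0 was seen for 35, 39 and 40 genes of these 3 lists. That sign was therefore not particular to the stress, folding and lipid lists. As deposited 0 genes of these 3 lists had a p under 0.05, so their counts rest on the rescaling. Full-length replicate 2 did not follow its group in any of these 3 lists: the median deviation of its members from the mean over the 6 libraries was 0.04, 0.02 and 0.03, where the other full-length libraries were at -0.05 to -0.10.

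The 13 mitochondrially encoded mRNAs had rescaled differences of 0.03 to 0.24 (median 0.18), and 0 were called. MT-ND4L, which had the lowest rescaled p, was at 16314, 14601 and 16187 TPM with full-length and 14915, 13037 and 13651 TPM with dMTS OGDHL (rescaled 0.24, SE 0.14, adjusted p = 0.463). Its lowest full-length library lay below dMTS replicate 1. This list rested on dMTS replicate 2. Without that library the rescaled median was -0.01, and the median deviation of the list in dMTS replicates 1, 2 and 3 was 0.22, -0.48 and 0.03. Import receptors, chaperones and proteases of mitochondria, which handle proteins that carry a targeting sequence, had a rescaled median of -0.03 over 33 genes and 0 calls, with the matrix chaperones HSPD1 at -0.09 and HSPA9 at -0.08.

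The 2-oxoglutarate-dependent dioxygenases did not stand apart at the mRNA level. Their rescaled median was 0.00 over 23 tested genes, 0 were called, and 1 had a rescaled p under 0.05 in each direction (0 as deposited). The rescaled shares over all genes were 8.83% on the full-length side and 6.21% on the dMTS side. KDM6B, a demethylase of the repressive histone mark H3K27me3, was at 15.4, 14.9 and 16.1 TPM with full-length and 12.6, 16.5 and 13.3 TPM with dMTS OGDHL. The groups overlapped as deposited and not after rescaling (0.19, SE 0.03, adjusted p = 0.116). The other was P4HA1.

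**Figure D4:**
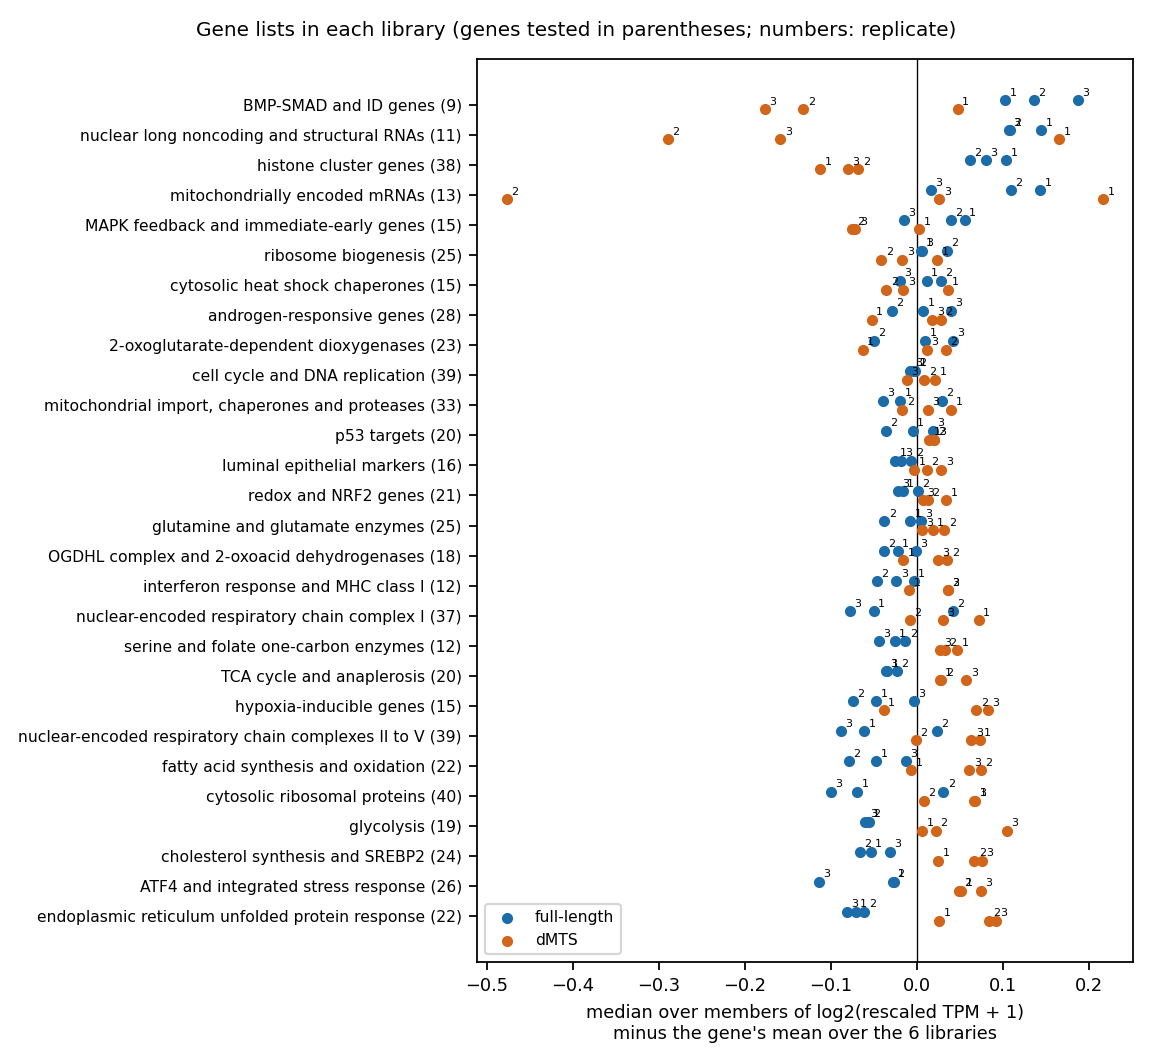
For each gene list with at least 5 tested genes, points give the median over members of log2(rescaled TPM + 1) minus the gene's mean over the 6 libraries, in blue for full-length and orange for dMTS libraries. The folding, stress and lipid lists sit lower in all 3 full-length libraries, the BMP-SMAD and histone lists sit higher, and dMTS replicate 2 stands at -0.48 in the mitochondrially encoded mRNAs.

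Histone cluster genes leaned to the full-length side. This list was chosen after its values were seen and supports nothing by its count. Of 61 genes found 38 were tested and 0 were called. A rescaled difference above 0 was seen for 31, beside 6492 of all 13231 genes. A rescaled p under 0.05 was seen for 15 on the full-length side, beside 8.83% of all genes, and for 1 on the dMTS side, beside 6.21%. As deposited 8 had a p under 0.05 on the full-length side, beside 3.19%, and 0 on the other. The rescaled median was 0.16. H2BC21 was at 115, 111 and 121 TPM with full-length and 89.0, 108 and 88.7 TPM with dMTS OGDHL (rescaled 0.35, SE 0.04, adjusted p = 0.0770). H3C6 was at 8.34, 7.79 and 9.04 TPM against 6.26, 7.78 and 6.28 TPM (rescaled 0.33, SE 0.04, adjusted p = 0.105). H4C8 was at 4.29, 4.20 and 4.53 TPM against 3.28, 3.90 and 3.06 TPM (rescaled 0.33, SE 0.05, adjusted p = 0.120). All 3 genes were lower in every dMTS library, and dMTS replicate 2 came closest to the full-length libraries. H2AC18 (0.34) and H2AC19 (0.32) are near-identical copies whose reads cannot be placed with certainty.

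Most mRNAs of replication-dependent histones end in a stem-loop instead of a poly(A) tail. The libraries came from an mRNA kit, and how evenly they recovered transcripts without this tail was not tested. The matches in the 3 genes just described are shown from GENCODE v29 transcripts, in the order 5′ to 3′, since this sequence is shared by many members of the list. Capitals mark the match to the pattern GG, any 2 bases, CT, any 4 bases, AG, any 2 bases and CC, searched on the transcript strand alone. H2BC21 carries it 56 bases after the end of the coding sequence, H3C6 30 bases and H4C8 41 bases. The transcript of H3C6 ends 5 bases after the match and that of H4C8 18 bases after it, whereas the H2BC21 transcript goes on for 1729 bases and does not end there.
H2BC21: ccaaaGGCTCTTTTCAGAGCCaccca
H3C6: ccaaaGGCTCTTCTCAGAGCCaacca
H4C8: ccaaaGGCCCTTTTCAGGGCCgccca
Within 150 bases after the coding end, the pattern was found in 21 of the 36 tested histone genes that were matched by identifier, over any transcript of a gene. In the same window it was found in 0.494% of 53485 coding transcripts. H2BC21 and H3C6 differ within the capitals, and the match is a description of the sequence only.

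Long nuclear RNAs varied mostly within the dMTS group. MALAT1 was at 1179.5, 1352 and 1151 TPM with full-length and 1374, 816 and 878 TPM with dMTS OGDHL, and NEAT1 at 108, 115 and 93.7 TPM against 107, 68.2 and 69.4 TPM. In both, dMTS replicate 1 was level with the full-length libraries or just above them, and the other dMTS libraries were lower. RPPH1, the RNA of RNase P, was at 8.41, 7.10 and 7.62 TPM against 5.35, 6.53 and 6.58 TPM (rescaled 0.34, SE 0.08, adjusted p = 0.178). Of the 11 tested long noncoding and structural RNAs of this list 0 were called. A rescaled p under 0.05 was seen for 3 on the full-length side and 0 on the dMTS side (4 and 1 as deposited). The shares over all genes were 8.83% and 6.21% rescaled, and 3.19% and 2.23% as deposited. Without dMTS replicate 1 there were 5 rescaled calls, all higher with full-length, where 5.59% of all genes were called. They were NEAT1 (0.75, adjusted p = 0.0200), MALAT1 (0.68, adjusted p = 0.0310), GAS5 (0.32, adjusted p = 0.0375), SNHG1 (0.51, adjusted p = 0.00800) and SNHG15 (0.48, adjusted p = 0.00907). As deposited NEAT1 (0.61, adjusted p = 0.0334) and MALAT1 (0.53, adjusted p = 0.0371) were then called. None of these genes was called with all libraries. Since dMTS replicate 1 was singled out by its values in these same data, the calls without it are a description and no independent support. With all libraries, the signal recognition particle RNA RN7SL1 was scattered from 48.0 to 186 TPM within the full-length group. By kind of gene, a rescaled p under 0.05 on the full-length and the dMTS side was seen for 8.95% and 5.72% of protein-coding genes, 14.1% and 5.73% of long noncoding RNAs, and 2.39% and 9.46% of processed pseudogenes.

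Genes of the androgen response had rescaled differences of -0.28 to 0.27, with a median of 0.01. Of 28 tested genes 0 were called, and 4 had a rescaled p under 0.05 in each direction, beside 8.83% of all genes on the full-length and 6.21% on the dMTS side. As deposited there were 0 and 1. KLK3, which encodes prostate-specific antigen, had a rescaled difference of 0.05 (adjusted p = 0.771). The rescaled median was -0.01 for 16 luminal markers, -0.01 for 39 cell cycle genes, -0.01 for 20 p53 targets, 0.01 for 15 cytosolic heat shock chaperones and 0.01 for 25 ribosome biogenesis genes, with 0 calls in each. Only 3 of 18 neuroendocrine markers reached the level tested: HES6, the neuronal enolase ENO2 (-0.16) and the neuropeptide gene CARTPT (0.49).

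The count of calls turned on dMTS replicate 1, the library closest to a full-length one. It was singled out by that likeness in these same data, and leaving out such a library tends to widen the difference between the groups. The calls and p-values without it are therefore a description and no independent support. Without it limma called 58 genes as deposited (0.438%), 40 higher with full-length and 18 higher with dMTS, and 912 rescaled (6.89%), 739 (5.59%) and 173 (1.31%). Without any other single library of the 9 it called 0 under either scaling. On the full-length side the rescaled calls without this library included IGFBP3 (1.27, adjusted p = 0.000267), SPRY4 (0.90, adjusted p = 0.000555), ID1 (0.92, adjusted p = 0.00161) and ID3 (0.70, adjusted p = 0.00161). On the dMTS side they included GDF15 (-1.001, adjusted p = 0.00560), HES6 (-0.56, adjusted p = 0.0136), DDIT4 (-0.38, adjusted p = 0.00442), INSIG1 (-0.54, adjusted p = 0.00560) and SCD (-0.65, adjusted p = 0.00466). OGDHL itself was not called (0.68, adjusted p = 0.0513).

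By list, the rescaled calls on the full-length side without dMTS replicate 1 were 5 of 9 BMP-SMAD genes and 5 of 11 long noncoding and structural RNAs. They were also 3 of 15 MAPK genes (SPRY4, DUSP2 and JUNB) and 7 of 38 histone genes, beside 5.59% of all genes. On the dMTS side they were 7 of 24 cholesterol genes, 6 of 22 unfolded protein response genes, 6 of 26 integrated stress response genes, 5 of 22 fatty acid genes, 4 of 15 hypoxia genes, 3 of 19 glycolysis genes (LDHA, ALDOC and HK2) and 1 MAPK gene (DUSP4), beside 1.31% of all genes. As deposited the calls in these lists were 1 BMP-SMAD gene, 2 nuclear RNAs and 1 MAPK gene on the full-length side, and 2 integrated stress response genes and 1 each of the cholesterol, fatty acid, glycolysis, hypoxia and MAPK lists on the dMTS side. The nuclear-encoded respiratory chain and the ribosomal proteins had 0. The lists share members: DDIT4 belongs to both the integrated stress response and the hypoxia list and was counted in each, rescaled and as deposited. The comparison then rests on 2 dMTS libraries, of which replicate 2 had the low mitochondrial share. No label marks dMTS replicate 1 as different, and what sets it apart was not tested.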

How the data were processed

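Messenger RNA was measured in 9 libraries of 3 groups, from a stranded mRNA kit with random priming, per the labels' protocols. The authors deposited a table of TPM for 36650 genes. STAR and GRCh38 were used per the submitters' processing notes, while the sources used here give neither the quantifier nor the annotation release. Its length values equal the genomic span of each gene. Reads were estimated from the steps of low TPM, 72.5% to 75.0% of which were whole within 0.01, so the depths are estimates and give no counting interval.

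Each gene was fitted with limma 3.58.1 (R 4.3.3, with version 1.17.8 of the data.table package) on log2(TPM + 1), with all 9 libraries, 6 residual degrees of freedom, the variance trend of eBayes and no covariate. Two-sided p-values were adjusted over all 13231 tested genes (Benjamini-Hochberg), and a gene was called under 0.05. Figures were drawn with matplotlib 3.10.9. The fit was tested on simulated data. The 32 gene lists, and the comparison itself, were chosen with earlier results of these data known; a list is described by its counts and median and has no test.

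Named genes were OGDHL and its 4 partners and relatives, then every called gene with a symbol. Since fewer than 20 resulted, up to 10 genes in each direction with a symbol and the lowest p as deposited were added, named as not called. In each list described, the 4 members with the lowest rescaled p could be named, and other genes named for their role (VEGFA, KLK3, MALAT1, NEAT1, BMPR2, BAMBI, RN7SL1, ATF4, and the remaining ID and SMAD genes) were added after their values were seen; some genes are not reported here. Alternatives were pseudocounts of 0.1 and 5, testing every gene above 0, a mean of at least 5 TPM, only the 6 libraries compared, the replicate number as a block, robust eBayes, array weights, limma-voom on the estimated reads, TPM rebuilt after removing OGDHL and mitochondrial genes, and leaving out each library in turn. The reference transcripts of GENCODE v29 gave the sequences.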

Additional observations from a re-analysis of the deposited data

How the results depend on the processing

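As deposited the count of calls was 0 with a pseudocount of 0.1 or 5, with only the 6 libraries compared, with robust eBayes and with the replicate number as a block. It was 7 without a filter on low levels (6 higher with full-length, 1 higher with dMTS), 1 with a mean of at least 5 TPM (IGFBP3), 1 by voom (SPRY4), and 1 when rescaled or with TPM rebuilt after removing OGDHL and mitochondrial genes (ENSG00000289913 in both). Without each library in turn the count ran from 0 to 58. The rescaled count was 1 with a pseudocount of 0.1 or robust eBayes, 2 with a pseudocount of 5 (ENSG00000289913 and SPRY4), 6 without a filter, 0 with a mean of at least 5 TPM, 0 with only the 6 libraries, 14 by voom, and 0 to 912 without each library in turn. Array weights gave 4125 calls as deposited and 4028 rescaled, and called OGDHL (0.83, adjusted p = 0.000844). These weights ran from 0.0628 for dMTS replicate 2 to 13.9 for eGFP replicate 2, so a few libraries decide that fit; they were estimated gene by gene because the default estimate did not converge. The OGDHL difference was 0.53 to 1.13 without each library in turn. The replicate numbers do not pair the libraries: deviations of same-numbered full-length and dMTS libraries correlated at 0.09, -0.46 and 0.02 over genes. Some differently numbered libraries did vary together, at 0.52 for full-length 3 with dMTS 2 and 0.39 for full-length 2 with dMTS 1. The lowest such value was -0.46, for full-length 3 with dMTS 1. What these libraries share was not tested. With the replicate block limma called 0 genes as deposited and 0 rescaled. Of 25 named genes besides OGDHL, 22 kept their sign in every setting run, and DHTKD1, DLST and DLD did not. Except where a count names it, the cause of a move was not tested.

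The precision is limited by 3 libraries a group and by dMTS replicates 1 and 2, which stood apart. The span-based TPM keep many genes with long introns below the level tested, IGF1R and INSR among them.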
